A study of Mus musculus with 4 samples.

Results

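The genes described here make the proteins that present peptides to T cells. They are the 10 gene symbols B2m, H2-D1, H2-K1, H2-Q10 and Tap1 of class I and Cd74, H2-Aa, H2-Ab1, H2-Eb1 and H2-DMa of class II, chosen by name out of the 33924 symbols in the files. All 10 had at least 5 counts in every library. Counts came from 4 libraries of capped 5′-ends of liver RNA from C57BL6 mice (C57BL/6Rj by the study's methods), made to follow gene expression with age at 3, 9, 15 and 21 months. Each age was 1 library, made from a pool of 24 mice (4 mice at each of 6 times of the day), so that the values are means over mice and over the day. All mice were male and food was freely available, and no engineered allele or treatment is given for any group. No value has a replicate error, no 2 ages can be tested against each other, and all intervals below are exact 95% intervals that cover counting error only. In a pool of whole liver, fewer cells of a type and less RNA per cell cannot be told apart.

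Class I molecules consist of a heavy chain bound to β2-microglobulin, sit on nearly all nucleated cells and show peptides made by the proteasome in the cell itself. Class II molecules pair an α with a β chain and show peptides from material that was taken up. They are known for their presence on professional antigen-presenting cells, which in the liver include Kupffer cells, dendritic cells and B cells, and are also described on sinusoidal endothelium. Both classes respond to interferon-γ, class I with the transactivator Nlrc5 and class II with Ciita.

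As the reads start at capped 5′-ends, the sequences just upstream of the starts are shown first. They come from RefSeq (GRCm38.p6), which gave a promoter for 8 of the 10 genes, and not for H2-Ab1 and Cd74. Each is printed 5′ to 3′ on the strand of the gene and ends with the last base before the start. Capitals mark matches on either strand to 1 of 3 motifs. These were the core of the interferon-stimulated response element (a pair of GAAA blocks with 2 bases of any kind between them), the enhancer A of class I genes (the 11 capital letters in H2-K1 and H2-D1 that start with GGGG) and the Y box (ATTGG, or CCAAT on the other strand). The class II genes H2-Aa (chr17:34287824-34287943, minus strand) and H2-Eb1 (chr17:34305747-34305866, plus strand) are printed for the Y box that both carry.
H2-Aa: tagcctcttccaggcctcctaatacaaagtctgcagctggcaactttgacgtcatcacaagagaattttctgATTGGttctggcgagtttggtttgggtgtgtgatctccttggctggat
H2-Eb1: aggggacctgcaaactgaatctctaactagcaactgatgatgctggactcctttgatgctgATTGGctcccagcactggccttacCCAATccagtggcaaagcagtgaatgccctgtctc
The heavy chain genes H2-K1 (chr17:34000348-34000527, minus strand), H2-D1 (chr17:35262914-35263093, plus strand) and H2-Q10 (chr17:35469909-35470088, plus strand) are printed because they are similar in sequence and differ at the enhancer A.
H2-K1: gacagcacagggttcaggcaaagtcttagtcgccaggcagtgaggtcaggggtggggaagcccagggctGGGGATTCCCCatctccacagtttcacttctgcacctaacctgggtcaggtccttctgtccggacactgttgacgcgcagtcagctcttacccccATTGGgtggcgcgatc
H2-D1: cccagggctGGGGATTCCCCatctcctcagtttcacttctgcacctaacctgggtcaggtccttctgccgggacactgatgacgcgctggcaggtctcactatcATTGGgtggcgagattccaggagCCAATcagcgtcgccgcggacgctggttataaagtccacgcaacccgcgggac
H2-Q10: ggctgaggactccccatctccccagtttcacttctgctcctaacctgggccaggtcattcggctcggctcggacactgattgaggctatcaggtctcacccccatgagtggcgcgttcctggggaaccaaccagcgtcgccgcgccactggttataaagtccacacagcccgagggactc
The light chain gene B2m (chr2:122147527-122147686, plus strand) is printed as the only member with a match to the interferon-stimulated response element core.
B2m: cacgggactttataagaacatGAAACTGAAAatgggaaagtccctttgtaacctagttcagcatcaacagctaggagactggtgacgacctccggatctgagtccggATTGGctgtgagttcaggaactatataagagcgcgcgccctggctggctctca

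Searched over 250 bases before the start, the enhancer A letters stood in 10 of 32851 promoters (0.0304%), and 3 of these were promoters of H2-D1 (1) and H2-K1 (2 annotated starts). The stretch of H2-Q10 with the fewest differences, GAGGACTCCCC at 176 bases before the start, differed by G2A and T6C (positions from 1 at the 5′ end of the 11 letters, enhancer A first). ATTGG or its complement stood in 33.8% of all promoters, and among the members with a promoter in those of B2m, H2-D1, H2-K1, Tap1, H2-Aa, H2-Eb1 and 1 of 2 promoters of H2-DMa. The interferon-stimulated response element core stood in 2.98% of promoters and in that of B2m, as GAAACTGAAA at 139 bases before the start. The gamma-activated site (TTC and GAA with 3 bases of any kind between them) stood in 7.02% of promoters and in none of the members. No match says only that these letters are not in this window. A match is a description of the letters only.

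Except B2m (chr2:121973422-121978819, plus strand) and Cd74 (chr18:60963502-60972300, plus strand), all members lie in the major histocompatibility complex on chromosome 17. These positions are on NCBIM37, which is the same assembly as the mm9 of the files. In order of position these are H2-K1 (chr17:34132962-34137278), H2-DMa (chr17:34272127-34276046), Tap1 (chr17:34324498-34334170), H2-Ab1 (chr17:34400154-34406363), H2-Aa (chr17:34406276-34424772), H2-Eb1 (chr17:34442828-34453144), H2-D1 (chr17:35399675-35404444) and H2-Q10 (chr17:35607034-35611508). H2-Ab1 and H2-Aa overlap at their ends on opposite strands. On opposite strands too, B2m lies within the span of Patl2 and Tap1 overlaps Psmb9. The strand setting of the counting is not given in the sources used here. The heavy chain genes share sequence. Of all windows of 35 bases, the length of a read, 45.6% in transcripts of H2-D1, 34% in H2-K1 and 33.3% in H2-Q10 matched elsewhere in the genome when up to 1 mismatch was allowed. Within the first 100 bases of the transcripts, where reads of capped ends are likely to lie, these shares were 25.8% for H2-D1, 1.62% for H2-K1 and 43.9% for H2-Q10. All 29 such windows of H2-Q10 had their match in H2-D1. Without a mismatch, the shares in the first 100 bases were 2.53% for H2-D1, 0% for H2-K1 and 0% for H2-Q10. As records that were not unique did not enter the counts, the heavy chain counts, and any split between H2-D1 and H2-Q10, are uncertain. For H2-Aa, H2-Ab1, H2-Eb1, H2-DMa, B2m and Tap1 none of the windows in the first 100 bases matched elsewhere. For Cd74 it was 35.1% (25.7% without a mismatch), at a short repeat found in several unrelated genes. The counts of Cd74 are thus uncertain too.

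**Figure D1:**
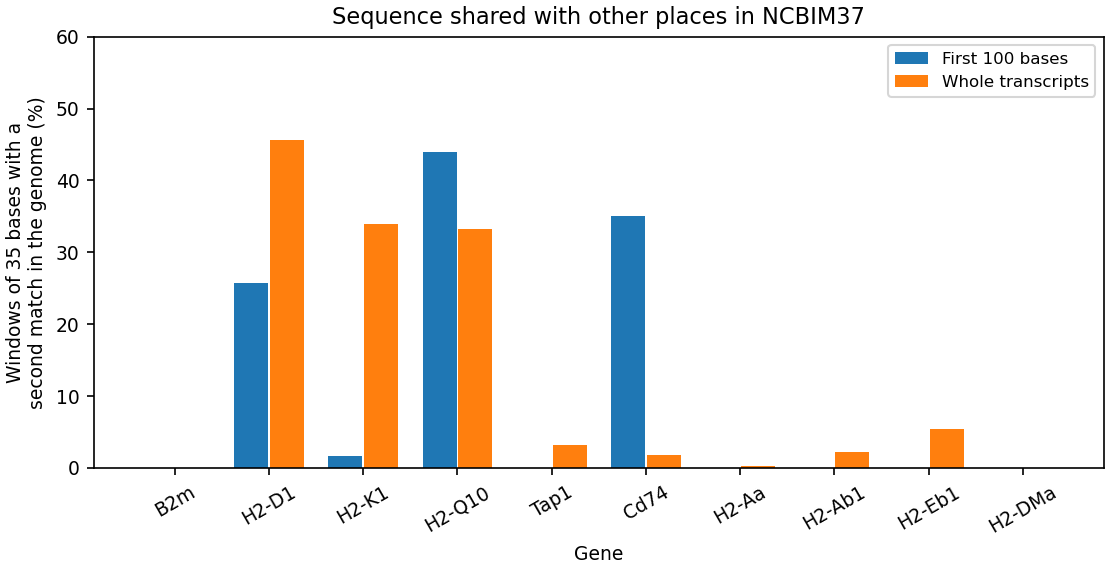
Percentage of windows of 35 bases that match elsewhere in the genome (up to 1 mismatch), for each gene in the first 100 bases and in the whole transcripts. H2-D1, H2-K1 and H2-Q10 stand out over whole transcripts with 45.6%, 34% and 33.3%, and Cd74 has shared windows mainly in the first 100 bases (35.1%).

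Depth ranged from 525772 (15 months) to 958586 (9 months) counts assigned to genes, and between 72.2 and 76.7% of records were not unique. Hepatocyte marker genes, which include Alb (albumin), Cyp2e1, Ttr and Fgb, took between 106008 and 115729 cpm (counts for every 1000000 that were assigned to genes), and their sum at 15 against 3 months had a ratio of 0.910 (0.901 to 0.919). The defining markers of liver were thus present in every pool. Levels are given as counts or cpm. Ratios between ages were taken after dividing the counts of each library by its geometric mean over the 8704 genes with a count in every library, the scale of the centred log-ratio (clr). A ratio past 1.5-fold in either direction was counted among genes with at least 40 counts summed over the libraries, 5090 in all, which 9 members reached. H2-DMa, with 21 counts in all, did not.

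B2m encodes the light chain that all class I molecules share. It had 6318, 5818, 2832 and 5014 counts at 3, 9, 15 and 21 months, or 6609, 6069, 5386 and 6813 cpm. The pools of 3 and 21 month-old mice were nearly level, with a 21 over 3 month ratio of 1.003 (interval from 0.967 to 1.04), while the 15 month pool was lowest. Relative to 3 months, the ratio was 0.942 (0.909 to 0.976) at 9 months and 0.745 (0.713 to 0.779) at 15 months, and thus less than 1.5-fold. Scaled by library totals, the latter ratio was 0.815.

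The heavy chains of the classical class I genes hold the peptide. H2-D1 had 120, 147, 83 and 128 counts, which is 126, 153, 158 and 174 cpm. Its lowest pool was that of 3 months, and the 21 over 3 month ratio was 1.35 (1.04 to 1.75). H2-K1 had 316, 374, 194 and 236 counts, or 331, 390, 369 and 321 cpm. It was highest at 9 months with a ratio to 3 months of 1.21 (1.04 to 1.41), and the ratios at 15 months (1.02, 0.849 to 1.22) and 21 months (0.944, 0.794 to 1.12) had intervals that include 1. H2-Q10, the heavy chain that the liver secretes in soluble form, had 527, 465, 237 and 347 counts, or 551, 485, 451 and 471 cpm. It was highest in the youngest pool, with ratios to 3 months of 0.902 (0.795 to 1.02), 0.748 (0.639 to 0.873) and 0.833 (0.725 to 0.955). H2-Q10 counts per count of H2-D1 and H2-K1 together were 1.21 at 3 months and between 0.856 and 0.953 at the later ages.

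Tap1, a subunit of the transporter that brings peptides into the endoplasmic reticulum, had 13, 22, 11 and 12 counts. Its ratios to 3 months of 1.73 (0.834 to 3.74), 1.41 (0.571 to 3.40) and 1.17 (0.487 to 2.77) all had intervals that include 1, so that no difference was detectable at this depth. Tap1 at 9 months was the only class I value past 1.5-fold among the comparisons with 3 months, where 18.1% of all genes were higher and 19.3% lower at 9 months. At 15 and at 21 months 0 of 5 class I genes were past 1.5-fold in either direction, whereas 25.3% of all genes were lower and 17.4% higher at 15 months, and 21.4% lower and 17.7% higher at 21 months. The class I counts summed to 7294, 6826, 3357 and 5737, of which B2m made up most, and the summed ratios to 3 months were 0.957 (0.926 to 0.989), 0.765 (0.734 to 0.797) and 0.995 (0.961 to 1.03). The sum of the 3 heavy chains gave 1.05 (0.957 to 1.15), 0.887 (0.796 to 0.989) and 0.934 (0.846 to 1.03).

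**Figure D2:**
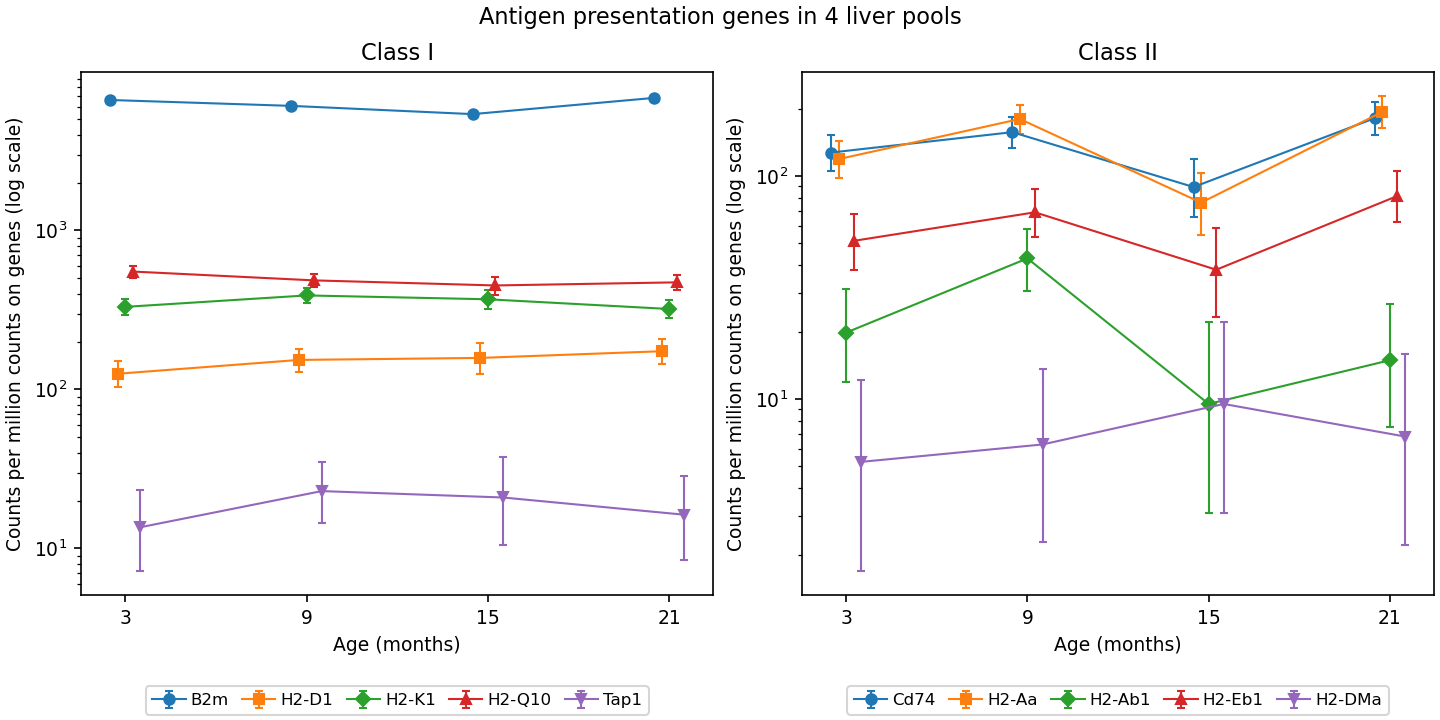
Level of each gene at the 4 ages in cpm (log scale), with exact 95% intervals of counting error and 1 pool per age, class I on the left and class II on the right. Class I lines run nearly flat, while H2-Aa and Cd74 reach 180 and 158 cpm at 9 months, 76.1 and 89.4 at 15 months, and 194 and 182 at 21 months.

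The class II genes with more than a few counts were all lowest in the 15 month pool. Cd74 encodes the invariant chain, which guides class II molecules to the endosomes and blocks their groove. It had 122, 151, 47 and 134 counts at 3, 9, 15 and 21 months, or 128, 158, 89.4 and 182 cpm. The 15 month pool was lowest and the intervals of its ratios to all other ages exclude 1, with 0.640 (0.447 to 0.904) against 3 months, 0.506 (0.357 to 0.706) against 9 months and a 21 over 15 month ratio of 2.17 (1.55 to 3.09). At 21 months Cd74 was 1.39 (1.08 to 1.79) times the value at 3 months.

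H2-Aa encodes the α chain of the I-A molecule. It had 114, 173, 40 and 143 counts, which is 119, 180, 76.1 and 194 cpm. The 9 and 21 month pools were high and similar to each other (ratio 1.02, 0.813 to 1.28), that of 3 months was intermediate and that of 15 months low. Ratios to 3 months were 1.55 (1.22 to 1.98), 0.583 (0.396 to 0.843) and 1.59 (1.23 to 2.05), and 15 over 9 months gave 0.376 (0.260 to 0.533). From 15 to 21 months the ratio was 2.72 (1.90 to 3.96).

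H2-Ab1, the β chain that pairs with H2-Aa, was counted far less often, with 19, 41, 5 and 11 counts or 19.9, 42.8, 9.51 and 14.9 cpm. It was highest at 9 months, with 2.21 (1.25 to 4.03) times the value at 3 months, whereas Cd74 and H2-Aa were highest at 21 months. Like these genes, it was lowest at 15 months, with 0.198 (0.0611 to 0.501) times the value at 9 months. At 21 months, however, H2-Ab1 stayed at 0.332 (0.154 to 0.657) of its 9 month value, while H2-Aa stood at 1.02 times its own. The counts of H2-Aa per count of H2-Ab1 were 6, 4.22, 8 and 13. Of the 6 pairs of libraries, the ratio differed between 21 and 9 months in Fisher's exact test (adjusted p = 0.00762, two-sided), which compares these libraries and not the ages. The next smallest adjusted p was 0.164, for 21 against 3 months. The adjustment covers the 6 pairs of this ratio only. Other ratios within libraries, given here without p-values, were tested in the same way, and some had a smaller adjusted p.

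H2-Eb1, the β chain of the I-E molecule, had 49, 66, 20 and 60 counts, or 51.3, 68.9, 38 and 81.5 cpm. In C57BL/6 mice the matching α chain gene is not functional, so that no I-E molecule reaches the surface. The order of the pools was that of Cd74 and H2-Aa. Ratios to 3 months were 1.38 (0.937 to 2.04), 0.679 (0.382 to 1.16) and 1.55 (1.04 to 2.31), and 15 over 9 months gave 0.493 (0.283 to 0.823). H2-DMa, a subunit of the factor that exchanges the invariant chain peptide for antigen, had 5, 6, 5 and 5 counts. Its 15 over 3 month ratio of 1.66 had an interval from 0.383 to 7.22, and no difference was detectable at this depth.

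All 4 class II genes with at least 40 counts had their lowest clr at 15 months, as did 32.6% of all genes with at least 40 counts and a count in every library. H2-Ab1 was also highest at 9 months (1 of 4, beside 10.3% of all such genes). Among class I, 2 of 5 (B2m and H2-Q10) were lowest at 15 months, and neither of these was highest at 9 months. Of the same 4 class II genes, 3 were past 1.5-fold lower at 15 than at 3 months (25.3% of all genes), 4 lower at 15 than at 9 months (22.5%) and 4 higher at 21 than at 15 months (23.1%). In these comparisons the intervals excluded 1 for 2, 4 and 3 genes. H2-Ab1, with 5 counts at 15 months, had intervals that include 1 at 15 against 3 months (0.438, 0.128 to 1.21) and 21 against 15 months (1.67, 0.536 to 6.14). Past 1.5-fold higher than 3 months were 2 at 9 months (H2-Aa and H2-Ab1, 18.1% of all genes) and 2 at 21 months (H2-Aa and H2-Eb1, 17.7%). At 21 against 9 months 1 of 4 was lower (H2-Ab1, 19.6% of all genes). The member just outside the limit at 15 against 3 months was H2-Eb1 with 0.679, and that just inside was Cd74 with 0.640. The median ratio of the 4 genes at 15 against 3 months was 0.612, beside a median of 0.924 over all genes, and at 21 against 15 months it was 2.23 beside 1.05. Summed over the 5 genes, class II had 309, 437, 117 and 353 counts. The summed ratios to 3 months were 1.45 (1.25 to 1.68), 0.630 (0.504 to 0.781) and 1.44 (1.24 to 1.69), and those of 15 over 9 and 21 over 15 months 0.435 (0.352 to 0.535) and 2.29 (1.86 to 2.85).

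**Figure D3:**
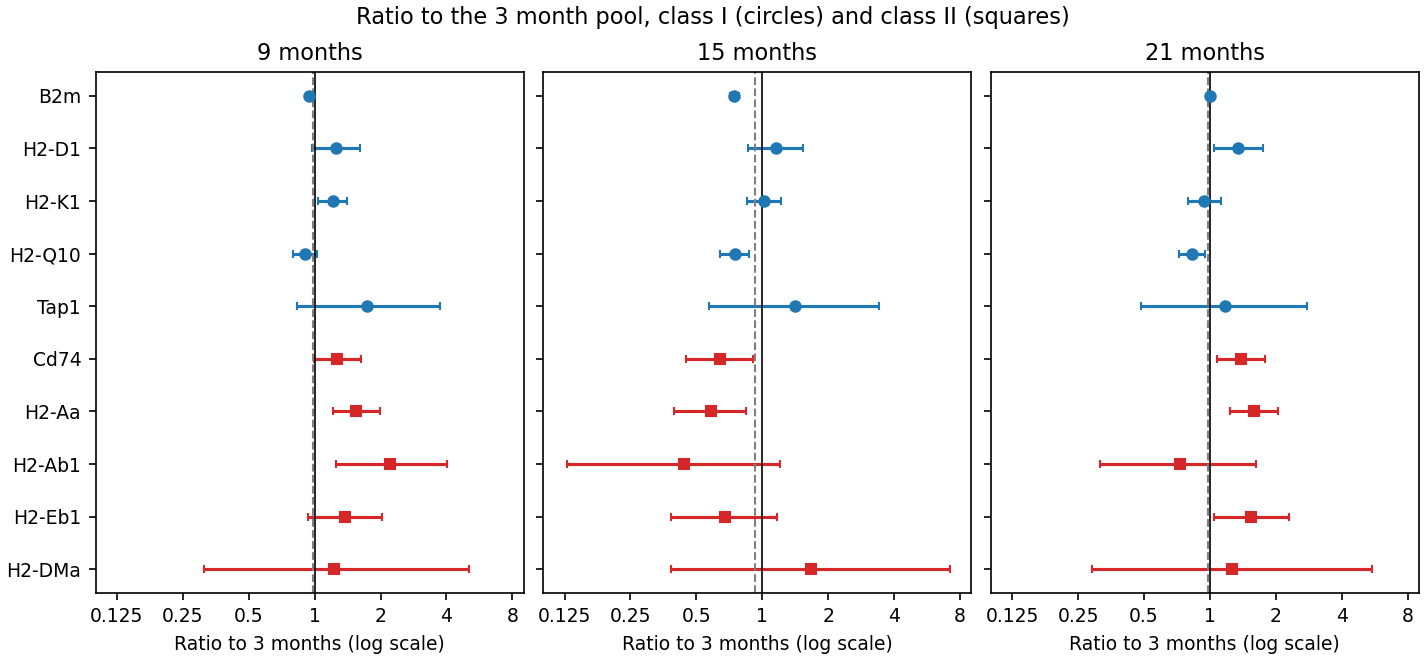
Ratios to the 3 month pool for each gene on the scale of the geometric mean (log axis) with exact 95% intervals of counting error, the dashed grey line being the median over all genes. At 15 against 3 months H2-Aa and Cd74 lie at 0.583 and 0.640, below the median of 0.924, while the class I ratios lie between 0.745 and 1.41.

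The 15 month library had the fewest counts, and its scale depends on the genes used for centring. With library totals in place of the geometric mean, the median of all genes at 15 against 3 months moved from 0.924 to 1.01, and the shares of genes past 1.5-fold moved from 25.3% lower and 17.4% higher to 20.1% lower and 22.2% higher. At 15 against 9 months, these shares moved from 22.5% lower and 17.1% higher to 16.6% lower and 23.6% higher. By library totals, 2 of the 4 class II genes were past 1.5-fold lower at 15 against 3 months, in place of 3, since Cd74 crossed the limit with 0.700, and all 4 at 15 against 9 months. TMM and DESeq2 size factors gave the same counts of 2 and 4. Of all genes, 21.3% (TMM) and 21.7% (DESeq2) were lower at 15 against 3 months, and 19.5% and 20.1% at 15 against 9 months. Tap1 crossed the limit upwards at 15 against 3 months by library totals and TMM, which made 1 of 5 class I genes higher. The shares of all genes were 22.2% by library totals and 21.0% by TMM.

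Ratios within a library do not depend on the scale. Class II counts per count of class I heavy chains were, in order of age, 0.321 (0.281 to 0.365), 0.443 (0.395 to 0.497), 0.228 (0.185 to 0.279) and 0.496 (0.436 to 0.565). The interval at 15 months lies below those of the other ages. H2-Aa counts per count of Cd74 were 0.934, 1.15, 0.851 and 1.07, with intervals that overlap, so that an unequal change of these genes was not detectable. B2m counts per count of the heavy chains ranged from 5.51 at 15 months to 7.05 at 21 months.

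Compared per kilobase of exon, the mean level was by far highest for B2m with 7232 cpm per kb. It was followed by H2-K1 (135), H2-Q10 (113), Cd74 (98.7), H2-Aa (71.7), H2-D1 (59.0), H2-Eb1 (50.4), H2-Ab1 (13.2), H2-DMa (4.23) and Tap1 (3.37). The ranges over the 4 pools of neighbours in this order were separate only between B2m and H2-K1 and between H2-Eb1 and H2-Ab1. Reads of capped ends come from the starts of transcripts, so that a division by length need not suit them.

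No member passed the test of a linear trend with age. In edgeR's quasi-likelihood test over 5569 genes, 6 genes (0.108%) passed an adjusted p of 0.05, of which 3 rose (0.0539%) and 3 fell (0.0539%), and 0 of the 9 members tested did (adjusted p = 0.997 for each). Their slopes ranged from -0.71 for H2-Ab1 to 0.26 for H2-D1 on the log2 scale per 12 months. Slopes over 4 pools depended on single libraries. That of H2-Ab1 was -1.73 without 3 months (unadjusted p = 0.0241, adjusted p = 0.998). Without 21 months, those of H2-Aa (0.21), Cd74 (0.16) and H2-Eb1 (0.25) turned to -0.58, -0.49 and -0.37. The unadjusted p ranged from 0.207 to 0.893, so that 0 members were under 0.05 while 5.21% of all genes were, and DESeq2's Wald test also called 0 members. The fit has 2 residual degrees of freedom, and a slope does not test a value that is low at 1 age only. Pearson's chi-square test asks whether the 4 counts of a gene differ by more than counting error, and compares libraries, not ages. It called 34.9% of 6172 genes and 7 of 9 members. Smaller differences pass it in genes with more counts, such as B2m with 19982, so that these shares cannot be compared directly. The adjusted p was 6.42e-41 for B2m, 8.37e-09 for H2-Aa, 0.000144 for Cd74, 0.000179 for H2-Ab1, 0.00617 for H2-Q10, 0.0148 for H2-Eb1 and 0.0359 for H2-K1. H2-D1 (0.188) and Tap1 (0.515) did not pass, and H2-DMa had too few counts to be tested.

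The variance of clr across ages was small for the class I genes with many counts, namely 0.0114 for H2-K1, 0.0152 for H2-Q10, 0.0165 for H2-D1 and 0.0198 for B2m, beside a median of 0.160 over all genes. In class II it was 0.119 for Cd74, 0.137 for H2-Eb1, 0.221 for H2-Aa and 0.459 for H2-Ab1. For Tap1 (0.0562) and H2-DMa (0.0436) it was below the 0.0742 and 0.192 that counting error alone would give. In all, 8 of 10 members had a variance below the median of all genes, H2-Aa and H2-Ab1 being the exceptions, and 9 of 10 had a mean clr above the median. A high count lowers the variance, since counting error is then small. Among genes with at least 10 counts in every library the median was 0.0568, and of the 8 members with that many counts 5 lay below it, all of class I, while Cd74, H2-Eb1 and H2-Aa lay above.

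**Figure D4:**
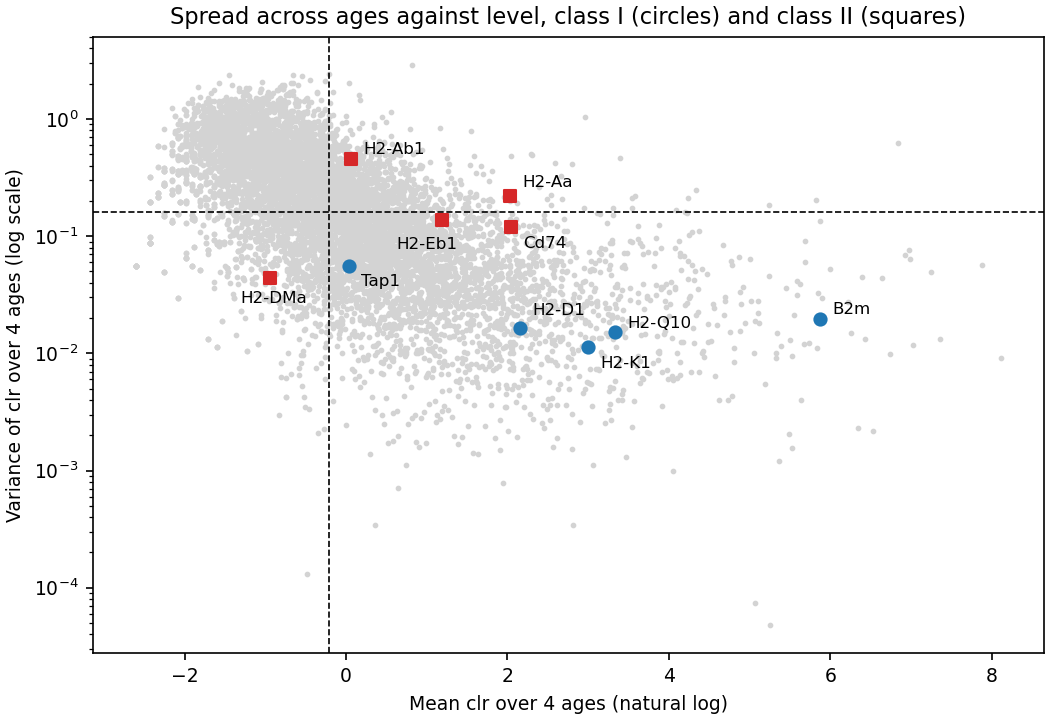
Variance of clr over the 4 ages (log scale) against mean clr for the 8704 genes with a count in every library (grey) and for the members, class I as circles and class II as squares, with dashed lines at the medians of all genes. H2-Ab1 (0.459) and H2-Aa (0.221) lie above the median variance of 0.160, and B2m combines the highest mean of the members (5.87) with a variance of 0.0198.

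At 40 counts or more, the share past 1.5-fold lower in the rest of the class I pathway was near that of all genes. Of 13 genes for loading and peptide supply, 8 had at least 40 counts. At 15 against 3 months 0 were past 1.5-fold higher (17.4% of all genes) and 2 lower (25.3%), namely Tapbp (tapasin, which holds the transporter and the empty class I molecule together, 147, 81, 58 and 123 counts, ratio 0.656) and the immunoproteasome subunit Psmb10, named here after its value was seen (34, 37, 11 and 17 counts, 0.538). The median ratio was 0.856. Tap2 (14, 15, 1 and 8 counts) and the transactivator Nlrc5 (7, 14, 3 and 7) did not reach 40 counts in all. Both are named for their roles. Calr (calreticulin, a chaperone of the loading complex) had 791, 561, 346 and 413 counts, with a ratio of 0.727 at 15 and 0.660 at 21 months. Canx (calnexin, which binds the new heavy chain) had 141, 172, 97 and 95 counts, and Psme1, a subunit of the proteasome activator PA28, 97, 75, 55 and 74 counts. Of 20 further class I heavy chains, 17 were in the files and 5 had at least 40 counts, of which 1 was lower at 15 against 3 months (25.3% of all genes). This was H2-T23 (Qa-1, a nonclassical heavy chain recognised by NK cell receptors) with 294, 195, 97 and 175 counts and a ratio of 0.549. Fcgrt (heavy chain of the neonatal Fc receptor) had 283, 238, 145 and 152 counts, H2-T22 75, 74, 46 and 80, and Cd1d1, which presents lipids, 33, 66, 29 and 28. No gene of either list passed the trend test.

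For the rest of the class II pathway, 17 of 18 genes were in the files and 8 had at least 40 counts. At 15 against 3 months, 0 of these were past 1.5-fold lower (25.3% of all genes) and 2 higher (17.4%), with a median ratio of 1.12 beside the 0.612 of the class II members. Both are named here after their values were seen. They were Lgmn (legumain, an endosomal protease, 25, 27, 50 and 17 counts, ratio 3.33) and Ifi30 (a lysosomal thiol reductase, 35, 56, 38 and 60 counts, 1.81). The lysosomal cathepsins Ctsl (297, 456, 202 and 279 counts), Ctsb (320, 340, 182 and 235), Ctsd (371, 255, 153 and 239) and Ctsz (128, 112, 84 and 95) had 15 over 3 month ratios between 0.686 and 1.13. Cathepsins are made by hepatocytes as well as by antigen-presenting cells. The transactivator Ciita, named here for its role, had 3, 3, 0 and 1 counts, too few to compare. The other class II chain genes of the list, named for the same reason, also stayed under 40 counts. Counts were 6, 1, 2 and 12 for H2-Oa, 2, 1, 0 and 1 for H2-Ob and 1, 1, 0 and 1 for H2-DMb1. For H2-DMb2 they were 2, 4, 0 and 0, for H2-Eb2 4, 1, 0 and 0 and for H2-Ea-ps 1, 0, 0 and 0. The median of 1.12 thus does not cover these chains. No gene of this list passed the trend test.

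Of 29 interferon-responsive genes, 28 were in the files and 12 had at least 40 counts, and 0 passed the trend test. At 15 against 3 months 8 of the 12 were past 1.5-fold lower (25.3% of all genes) and 0 higher (17.4%), with a median of 0.521. At 21 against 15 months 8 were higher (23.1%) and 2 lower (18.4%), with a median of 2.32. Bst2 (tetherin, which retains viruses at the cell surface) had 218, 181, 64 and 146 counts and a 15 over 3 month ratio of 0.488. For the immunity-related GTPases, the counts were 46, 33, 13 and 44 for Irgm1 (ratio 0.470), 28, 24, 11 and 34 for Ifi47 (0.653) and 37, 36, 28 and 23 for Iigp1 (1.26). The list summed to 560, 501, 190 and 419 counts. It was low in the same pool as the class II genes (0.564, 0.476 to 0.666, at 15 against 3 months), and its 9 over 3 month ratio was 0.915 (0.809 to 1.03), a sum in which Bst2 has the most counts. At 9 against 3 months 4 of the 12 genes were past 1.5-fold higher (18.1% of all genes) and 2 lower (19.3%), with a median of 0.936. Scaled by library totals, 7 of the 12 were lower at 15 against 3 months (20.1% of all genes) and 2 higher (22.2%). Class II counts per count of this list were 0.552, 0.872, 0.616 and 0.842 in order of age.

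Kupffer cell, macrophage and leukocyte markers did not have their lowest sums at 15 months on this scale. Kupffer cell and macrophage markers (13 of 14 in the files, all with at least 40 counts) summed to 903, 1054, 597 and 931 counts. This gave 945, 1100, 1135 and 1265 cpm and a 15 over 3 month ratio of 1.10 (0.990 to 1.22), with 2 of 13 genes past 1.5-fold higher (17.4% of all genes), 2 lower (25.3%) and a median of 0.982. Among these, Cd5l had 302, 408, 226 and 319 counts, Clec4f, a lectin of Kupffer cells, 131, 131, 69 and 103, Csf1r 104, 110, 56 and 76, and the complement gene C1qc 88, 57, 35 and 94. Class II counts per count of these markers were 0.342 (0.300 to 0.390), 0.415 (0.370 to 0.464), 0.196 (0.159 to 0.239) and 0.379 (0.334 to 0.429), so that the 15 month interval lies below those of the other ages. Leukocyte markers (7 genes, 6 with at least 40 counts, among them Laptm5, Fcer1g, Cd52 and Tyrobp, with 1 past 1.5-fold higher, 1 lower and a median of 1.07 at 15 against 3 months, beside the same 17.4% and 25.3%) summed to 184, 186, 115 and 208 counts with a 15 over 3 month ratio of 1.04 (0.816 to 1.32), and class II counts per count of these were 1.68, 2.35, 1.02 and 1.70. Sinusoidal endothelial markers (10 genes, among them Oit3, Stab1, Kdr and Clec4g) summed to 1048, 1059, 570 and 819 counts with a 15 over 3 month ratio of 0.904 (0.815 to 1.002), and 2 of 10 genes were past 1.5-fold lower (25.3% of all genes) and 0 higher (17.4%), with a median of 0.745.

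Dendritic cell markers had few counts. They summed to 18, 23, 5 and 12 counts over 9 genes, of which Zbtb46 had 14, 10, 3 and 5, Itgax 2, 4, 2 and 3, Siglech 1, 3, 0 and 2 and Clec9a 1, 4, 0 and 0. Flt3, Batf3 and Cd209a, named as defining markers outside the rule, were at 0 in every library. The sum was lowest at 15 months, with ratios of 0.462 (0.134 to 1.29) to 3 months and 0.353 (0.105 to 0.95) to 9 months, and a 21 over 15 month ratio of 1.83 (0.599 to 6.61). B and plasma cell markers (11 of 13 in the files) summed to 11, 29, 29 and 59 counts. Of these, Ighm, the heavy chain of IgM, had 2, 8, 19 and 39 counts and was the only listed gene to pass the trend test (adjusted p = 0.0124 in edgeR's quasi-likelihood test). Most of the sum at 15 and 21 months was Ighm. Igkc had 0, 13, 1 and 6 counts, Igj 0, 3, 3 and 7, and Cd22 7, 2, 0 and 1. The B cell markers Ms4a1 and Pax5, also named outside the rule, were at 0 in every library, where 3 counts would be between 3.13 and 5.71 cpm. The part of dendritic and B cells in the class II values was not tested.

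**Figure D5:**
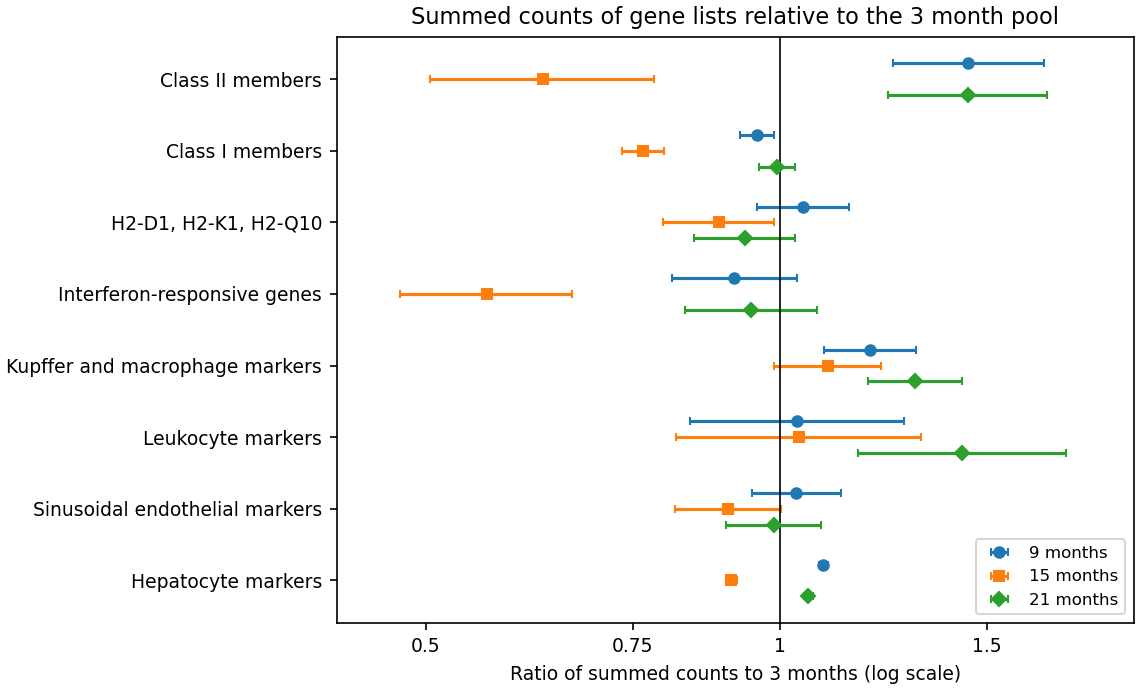
Summed counts of the gene lists relative to the 3 month pool on the scale of the geometric mean (log axis), with exact 95% intervals of counting error. The class II sum lies at 1.45, 0.630 and 1.44 at 9, 15 and 21 months, the interferon-responsive list at 0.915, 0.564 and 0.946, and the Kupffer cell and macrophage markers at 1.19, 1.10 and 1.30.

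Finally, the genes with profiles nearest to the summed classes were sought among 2438 other genes with at least 100 counts, by the Euclidean distance of the 4 mean-centred clr values. For class I these were Fcer1g (distance 0.0176, 35, 33, 16 and 28 counts), the common γ chain of Fc receptors, then Insr (0.0341), the insulin receptor, Prrc2a (0.0392), Azgp1 (0.0455) and Eif3d (0.0470). For class II they were Tnfaip8l1 (0.0514, 26, 35, 10 and 30 counts), Cct2 (0.0766), a chaperonin subunit, Snrpd2 (0.111), a splicing protein, Dcxr (0.140) and the sulfotransferase Sult1a1 (0.154, 707, 925, 305 and 786 counts). Fcer1g is also 1 of the leukocyte markers above. The likeness rests on 4 values per gene, which share the 4 libraries.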

How the data were processed

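Liver RNA of 4 ages was analysed, with 1 pooled library per age and groups taken from the labels. The authors selected capped 5′-ends, sequenced 35 bp reads (SOLiD, 1 lane) and used the CLC Genomic workbench to map them to mm9. The submitters' processing notes name HTSeq, without a version. The deposited files hold raw counts per gene symbol, which were used as deposited by the authors. Rows of unassigned records were left out. The members and gene lists were chosen with earlier results of these data known.

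The clr (natural logarithm, variance with divisor 3), ratios with exact Clopper-Pearson intervals, chi-square tests (3 degrees of freedom, expected count of at least 5 in each library) and Fisher's exact tests were calculated with Python 3.11.15 (numpy 2.4.6, pandas 2.3.3, scipy 1.17.1, matplotlib 3.10.9). The slope with age was tested with edgeR 4.0.16 in R 4.3.3 (quasi-likelihood, TMM factors, filterByExpr). All p-values were Benjamini-Hochberg adjusted, over all genes tested or, for Fisher's test, over the 6 pairs of libraries of each ratio. The scripts were tested on simulated data. Alternatives were library totals, TMM and DESeq2 1.42.0 size factors, a geometric mean over genes with at least 10 counts in every library, a pseudocount of 0.5, no filter, DESeq2's Wald test, sums without B2m and leaving out each age.

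Besides the members, the named genes are the up to 4 genes with the most counts of each list, listed genes past the trend test, and the 5 nearest profiles per class. T, NK and neutrophil markers are given mostly as sums. Exceptions are marked in the text. Positions come from GENCODE M1 and promoters from RefSeq.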

Additional observations from a re-analysis of the deposited data

How the results depend on the processing

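With 1 pool of 24 mice per age, differences between pools of the same age are unknown, and intervals cover counting error only. H2-DMa, Tap1 and H2-Ab1 had between 5 and 41 counts per library, which limits their ratios most. No paired analysis was possible because each age had 1 library and the labels gave no replicate numbers. Of 240 member ratios recomputed under other scales, 232 stayed within their counting interval and 8, all of B2m, moved, by at most 1.12-fold, and 0 changed direction with an interval excluding 1. Of 72 recomputed member slopes 0 passed the threshold (smallest adjusted p 0.901). The number of genes with an age trend was 6 (3 higher and 3 lower with age), 2 with library totals (2 higher, 0 lower), 0 with DESeq2's Wald test, and between 9 and 23 with 1 age left out: 10 without 9 months, 16 without 15 months and 23 without 21 months. Fewer samples enter these fits. The number of members called was 0 under each of these settings. Without B2m, the class I sum at 21 against 3 months was 0.937 instead of 0.995, and it turned from 0.957 to 1.06 at 9 against 3 months and from 1.04 to 0.887 at 21 against 9 months, as B2m holds most of its counts. The chi-square test called 2152 genes, and between 1402 and 1798 with 1 age left out, the lowest without 3 months. Without 15 months, it called 4 members in place of 7 (B2m, H2-K1, H2-Aa and H2-Ab1), and by library totals 5, without H2-K1 and H2-Q10. Calls over all genes also fell with 1 age left out, and the share of all genes by library totals is not given here. These member counts thus cannot be compared with the 7 directly. The median variance of clr of the members was 0.0499, and ranged from 0.0264 without 15 months to 0.0698.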

Other observations

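Markers of T and NK cells and of neutrophils were rare in these pools. T and NK cell markers (15 genes, 3 at 0 in every library) summed to 13, 16, 9 and 25 counts at 3, 9, 15 and 21 months, with a 21 over 3 month ratio of 2.43 (1.20 to 5.18). Neutrophil markers (9 genes, 4 at 0 in every library) summed to 2, 1, 8 and 5 counts, 6 of the 8 at 15 months being S100a8. The 15 month ratios of 6.65 (1.33 to 64.3) to 3 months and 13 (1.74 to 577) to 9 months rest on 2 and 1 counts. Single Kupffer cell markers at 15 against 3 months ran from 0.399 for Cd68 (25, 41, 6 and 21 counts) to 3.53 for Timd4 (16, 31, 34 and 25 counts), both named after their values were seen.

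Calr, with the most counts of the class I loading list, was lower at each later age than at 3 months (0.725, 0.727 and 0.660), whereas its relative Canx was 1.25, 1.14 and 0.852.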
